A study of Mus musculus with 6 samples.

Results

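Tex19.1 and 9 genes of its neighbourhood on chromosome 11 were described by their rows in a comparison of Tex19.1-/- with Tex19.1+/- mouse embryonic stem (ES) cells. The genes were chosen by symbol, and all 10 (Tex19.1, Rfng, B3gntl1, Dcxr, Narf, Foxk2, Gps1, Dus1l, Csnk1d and Hexdc) have a row among the 10128 genes of the authors' deposited table. RNA sequencing was carried out on 3 Tex19.1-/- and 3 Tex19.1+/- samples of ES cells descended from E14Tg2a, a line of 129/Ola background, at passages 12 to 18 in serum with conditioned medium holding leukaemia inhibitory factor. Both genotypes carry at least 1 mutated Tex19.1 allele, so the heterozygous cells and not wild-type cells are what the Tex19.1-/- cells are set against. The structure of the mutated allele, and whether each genotype is 1 clone or several, are not given in the labels. The table gives 1 log2 fold change, 1 mean level in log2 CPM, where CPM is the read count scaled to the size of the library, 1 p-value and 1 adjusted p per gene. Values of single libraries and their depth are therefore unknown here, and no spread between replicates can be printed. The header does not name the direction of the fold change, so it was set by Tex19.1, the lowest gene: a negative value means lower in Tex19.1-/- cells.

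Tex19.1 encodes a mammal-specific protein of germ cells, placenta and pluripotent stem cells that binds the ubiquitin ligase UBR2, and mice without it have meiotic defects and raised levels of some retrotransposons. Its neighbours on distal chromosome 11 are mostly broadly expressed genes with unrelated functions, including enzymes that modify sugars, a kinase, a transcription factor and a subunit of the COP9 signalosome. They are of interest in a knockout because they lie close to the mutated site, and the comparison asks whether their transcripts differ between the genotypes beyond what other genes of like expression do.

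The 250 bases before the RefSeq start of Tex19.1 (GRCm38.p6, chr11:121145893-121146142, plus strand) are shown because this is the promoter of the gene whose transcript fell. Capitals mark TGACTCA, the core of the AP-1 site, and TATAA, both searched on both strands. The 65 bases between the first listed RefSeq starts of Rfng and Gps1 (chr11:120784205-120784269, read on the Gps1 strand) follow. They are shown because this pair is transcribed in opposite directions from a common stretch. There, capitals mark CpG dinucleotides.
Tex19.1: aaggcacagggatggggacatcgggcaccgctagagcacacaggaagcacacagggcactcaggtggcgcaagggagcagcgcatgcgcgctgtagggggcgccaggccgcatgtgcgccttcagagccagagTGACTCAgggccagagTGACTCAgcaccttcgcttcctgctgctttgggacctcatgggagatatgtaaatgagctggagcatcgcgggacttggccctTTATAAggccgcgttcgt
Rfng-Gps1: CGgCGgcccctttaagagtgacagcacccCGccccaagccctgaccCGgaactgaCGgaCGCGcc

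The Tex19.1 stretch holds TGACTCA at 2 places and TATAA at 1, which overlaps its own reverse complement. Among the 7640 genes of the table with a promoter in RefSeq's annotation, 2.5% held TGACTCA and 10.7% held TATAA in the same 250 bases. The octamer ATGCAAAT, searched on both strands, was not among these letters of Tex19.1 and was held by 1.27% of the promoters. Tex19.1 had 15 CpG dinucleotides there, against a median of 17 over the 7640 promoters. Rfng had 34 and the first listed start of Gps1 had 38, while Dcxr had 5. These counts describe the sequence only.

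Tex19.1 itself (ENSMUSG00000039329.8, GRCm38 chromosome 11, 121146143 to 121148319, plus strand) fell to 0.828% of the heterozygous level in Tex19.1-/- cells. The authors' deposited table gives it a log2 fold change of -6.92, the largest change of the 10128 genes in either direction, at a mean of 13.8 CPM. Its p-value and its adjusted p are listed as 0, as are the p-values of 8 genes in all. The mean and the fold change together imply about 0.227 CPM in Tex19.1-/- cells and 27.4 CPM in Tex19.1+/- cells, if the mean weights both genotypes alike. A fold change of this size rests on few reads in the knockout and on the small count that such a model adds, so the lower of these levels is approximate. Because this gene fixed the direction, its sign is no check of the labels, and the labels do not say which part of the transcript the allele removes.

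The gene nearest to Tex19.1 in log2 fold change was Cubn, an endocytic receptor gene, at -2.93 in the authors' deposited table. It was followed there by the proteoglycan gene Srgn at -2.89, Uty at -2.83, the translation initiation factor gene Eif2s3y at -2.64 and the forkhead factor gene Foxq1 at -2.57. Uty and Eif2s3y lie on the Y chromosome. The likeness is in size alone, over 1 comparison. At the same mean level the authors' deposited table has Ttpa at 0.04 and Zfp870 at -0.44 on one side of Tex19.1, and Parp9 at 0.22 and Cystm1 at -0.30 on the other. Each gene was also set against the genes of like expression, the about 300 genes nearest to it in mean log2 CPM. Of those of Tex19.1, 0 had a change as large, and their central 95% ran between -0.83 and 0.50.

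**Figure D1:**
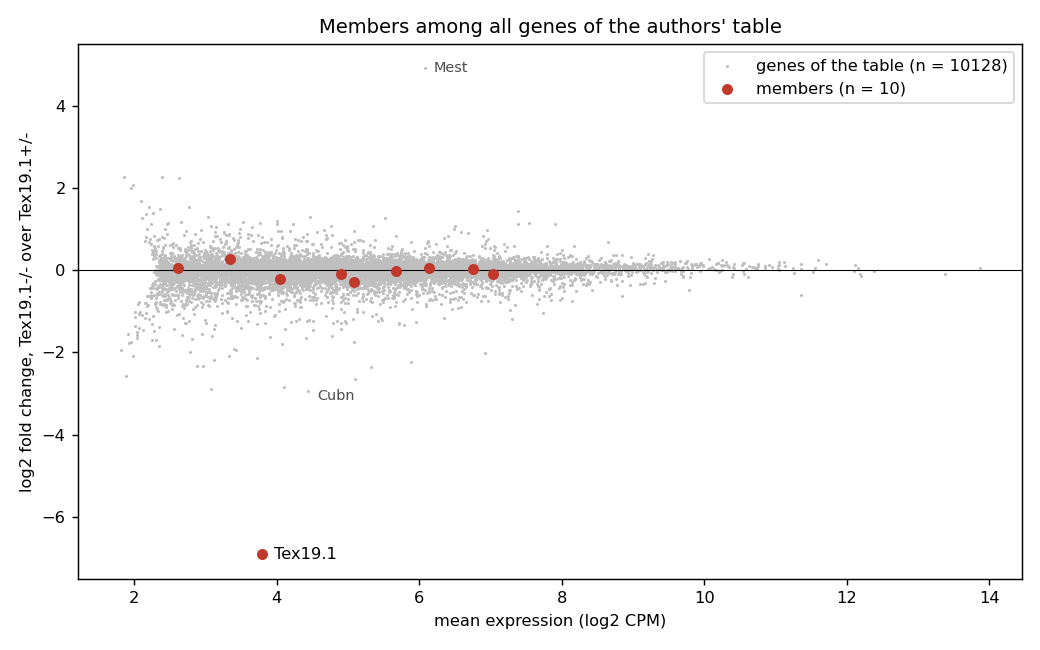
Log2 fold change of Tex19.1-/- over Tex19.1+/- cells (vertical axis) against mean expression in log2 CPM (horizontal axis) for the 10128 genes of the authors' table, in grey, with the 10 genes of the neighbourhood in red. Tex19.1 lies alone at -6.92, and the other 9 lie inside the grey band between -0.28 and 0.26.

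Tex19.1 has a paralog, Tex19.2, on the opposite strand 27.5 kb before it, which was not analysed here. The longest transcripts of the 2 genes in GENCODE M21 align over 1106 bases with 83.5% identity. Their longest shared run without a mismatch is 72 bases, shorter than the 150-base reads named in the labels. A full-length read could not lie wholly within such a run, but a read trimmed to less could.

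Of these genes, 5 of the 10 passed the authors' deposited adjusted p at a threshold of 0.05, against 51.7% of all genes. Tex19.1, Rfng, Dcxr and Csnk1d were lower and B3gntl1 was higher in Tex19.1-/- cells, against 26.5% of all genes lower and 25.2% higher. Without Tex19.1, 4 of 9 passed, which is close to the share over all genes. At an adjusted p of 0.01, 4 of the 10 passed, against 41.3% of all genes, and with Bonferroni adjustment 2 passed (Tex19.1 and Rfng), against 23.8%. The 9 fold changes ran between -0.28 and 0.26 with a median of -0.02, and the median over all genes was 0.00. Their sizes were small: 6 of the 9 were under 0.1 on the log2 scale, as were 45.3% of all genes. Where so large a share of the table passes, passing does not by itself set a gene apart.

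Rfng and B3gntl1, both named as glycosyltransferase genes, had the largest changes among the 9 neighbours, in opposite directions. Rfng (120780746 to 120784207, minus strand), the radical fringe gene, encodes an enzyme that extends O-fucose on Notch receptors, and had -0.28 as its log2 change in the authors' deposited table (adjusted p = 6.49e-09). Its mean was 33.9 CPM, which implies about 30.6 CPM in Tex19.1-/- cells and 37.2 CPM in Tex19.1+/- cells. The p-value of Rfng implies a 95% interval between -0.37 and -0.19, taking the estimate to be normally distributed. Among the genes of like expression 13.3% had a change at least as large as that of Rfng.

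B3gntl1 (121616197 to 121673153, minus strand), annotated by its name as like a beta-1,3-N-acetylglucosaminyltransferase, was higher, with a log2 change of 0.26 in the authors' deposited table (adjusted p = 0.000207). Its mean of 10.2 CPM implies about 11.1 CPM in Tex19.1-/- cells and 9.29 CPM in Tex19.1+/- cells, and its implied 95% interval ran between 0.13 and 0.38. Of its genes of like expression, 31.9% changed at least as much. B3gntl1 was the only 1 of the 10 that passed on the higher side. Its last 968 bases overlap the end of Tbcd, a tubulin cofactor gene on the other strand, with 237 of them in exons of both genes. Tbcd had 0.10 as its log2 change in the authors' deposited table (adjusted p = 0.0323). The libraries were made with a stranded kit, but the strand setting of the counting is not given in the sources used here, so reads from the overlap may not have been told apart.

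Hexdc (121204433 to 121222655, plus strand), which encodes hexosaminidase D, is the nearest measured gene after Tex19.1, 56.1 kb away. It had 0.04 as its log2 change in the authors' deposited table (adjusted p = 0.731) and did not pass. It was the lowest of the 10 in mean level, at 6.09 CPM, and had the widest implied 95% interval, between -0.15 and 0.23. Hexdc overlaps Ogfod3 by 279 bases at its start and Cybc1 by 68 bases at its end, both on the opposite strand and neither analysed here.

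The metabolic enzyme gene Dcxr (120725399 to 120727281, minus strand), which encodes the dicarbonyl and L-xylulose reductase of the uronate cycle, was lower, with a log2 change of -0.22 in the authors' deposited table (adjusted p = 0.000401). Its mean was 16.5 CPM, with about 15.3 CPM implied in Tex19.1-/- cells and 17.8 CPM in Tex19.1+/- cells. The implied 95% interval of Dcxr ran between -0.33 and -0.11, and 32.6% of its genes of like expression changed at least as much.

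Csnk1d (120961749 to 120991330, minus strand) encodes casein kinase 1 delta, a kinase of the circadian clock and of Wnt signalling, and is the nearest measured gene before Tex19.1, 155 kb away. It was slightly lower, with a log2 change of -0.10 in the authors' deposited table (adjusted p = 0.0185), with an implied 95% interval between -0.17 and -0.03. Its mean was 131 CPM, about 127 CPM implied in Tex19.1-/- cells and 136 CPM in Tex19.1+/- cells. Among its genes of like expression 49.8% changed by as much or more, and 56.1% passed the threshold. The gene that ends 0.881 kb from Csnk1d on the other strand, Slc16a3, which encodes a lactate exporter, went the other way, at 0.32 in the authors' deposited table (adjusted p = 1.64e-11).

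The 4 remaining genes of the nucleus and of RNA modification did not pass. Gps1 (120784272 to 120789102, plus strand), a subunit gene of the COP9 signalosome that removes NEDD8 from cullins, had 0.03 as its log2 change in the authors' deposited table (adjusted p = 0.496) and a mean of 108 CPM. Dus1l (120789201 to 120796403, minus strand), related to the enzymes that make dihydrouridine in transfer RNA, was at 0.05 in the authors' deposited table (adjusted p = 0.256), with a mean of 70.5 CPM. Narf (121237253 to 121255856, plus strand), whose product binds prelamin A, was at -0.09 in the authors' deposited table (adjusted p = 0.116), with a mean of 29.9 CPM. Foxk2 (121259990 to 121309896, plus strand), a forkhead transcription factor gene, was at -0.02 in the authors' deposited table (adjusted p = 0.784), with a mean of 50.8 CPM. Their implied 95% intervals all held 0: between -0.04 and 0.11 for Gps1, -0.02 and 0.13 for Dus1l, -0.19 and 0.01 for Narf, and -0.11 and 0.08 for Foxk2.

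Rfng and Gps1 offer a comparison at a shared promoter stretch, the 65 bases printed above. Another start listed for Gps1 lies past this stretch, so not all of its transcripts need begin there. Rfng, read leftwards from it, was at -0.28, and Gps1, read rightwards, was at 0.03 in the authors' deposited table. Their implied 95% intervals do not overlap, but the difference between the genes was not tested, since both estimates come from the same libraries. Dus1l ends 98 bases from the end of Gps1 on the opposite strand, and the implied intervals of Gps1 and Dus1l overlap over most of their length.

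**Figure D2:**
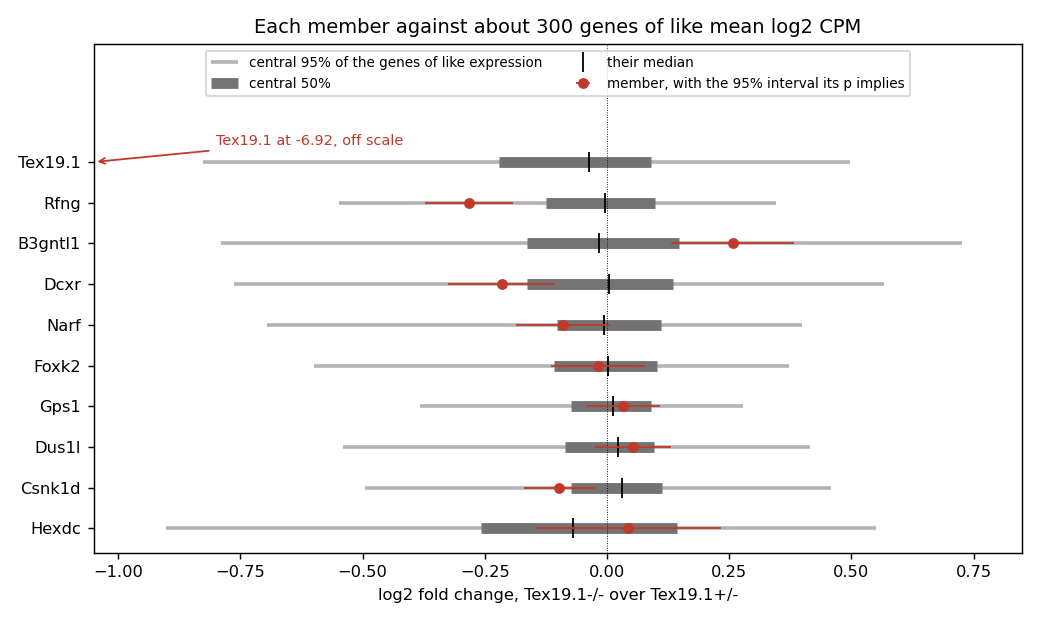
Log2 fold change of Tex19.1-/- over Tex19.1+/- cells (horizontal axis) for each of the 10 genes (rows), as red points with the 95% interval that the authors' p-value implies, over the range of the about 300 genes nearest in mean log2 CPM: thin bars span their central 95%, thick bars their central 50%, and ticks mark their median. Tex19.1, at -6.92, is off the scale to the left, and the other 9 points lie inside the thin bars, with Rfng, B3gntl1, Dcxr and Csnk1d outside the thick ones.

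Set against genes of like expression, 1 of the 10, Tex19.1, lay outside the central 95%, as did 5.67% of all genes by the same measure, 2.79% on the lower and 2.87% on the higher side. Rfng came next, above 8.64% of its genes of like expression. B3gntl1 was above 84.4% of its own, Dcxr above 18.9% and Csnk1d above 21.6%. The 5 genes that did not pass lay above 28.2% (Narf), 44.2% (Foxk2), 58.1% (Gps1), 60.5% (Dus1l) and 64.1% (Hexdc) of theirs.

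Levels were compared between genes per kilobase of annotated exon, again as levels implied by the mean and fold change in the authors' deposited table. In Tex19.1-/- cells Gps1 was highest, at about 37.8 CPM per kb, followed by Csnk1d at 25.3, Dus1l, Dcxr at 13.4 and Rfng at 12.3. Foxk2 at 9.60, Narf at 6.02, B3gntl1 at 3.16 and Hexdc at 1.31 CPM per kb came next, and Tex19.1 was last, at about 0.121 CPM per kb. In Tex19.1+/- cells the order of the 9 neighbours was the same, with about 37.0 CPM per kb for Gps1, 18.4 for Dus1l and 1.27 for Hexdc. Tex19.1 stood there at 14.6 CPM per kb, between Rfng at 14.9 and Foxk2 at 9.72. Which neighbours in this order differ beyond their spread cannot be said without values per library.

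**Figure D3:**
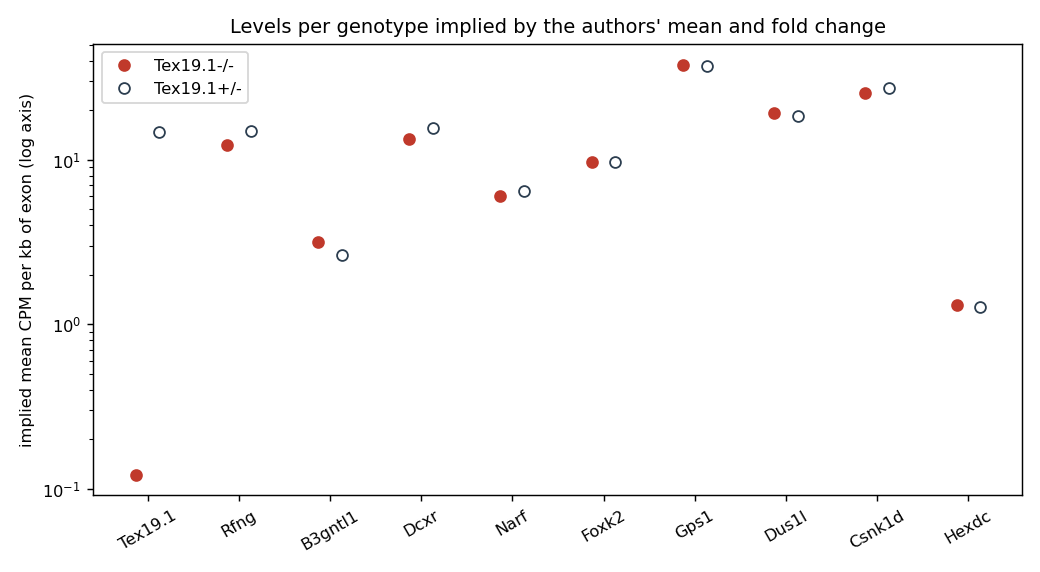
Level in CPM per kilobase of exon (vertical log axis) implied by the authors' mean and fold change for each of the 10 genes, with Tex19.1-/- cells as filled points on the left and Tex19.1+/- cells as open points on the right. Tex19.1 drops to 0.121 in Tex19.1-/- cells, against 14.6 in Tex19.1+/- cells, and the paired points of the other genes lie close together, at 12.3 and 14.9 for Rfng.

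All genes of the table within 1 Mb of Tex19.1 were counted as well, so that the 9 can be read beside neighbours not picked by name. There were 38 of them, 31 before Tex19.1 and 7 after it, and the last annotated gene of chromosome 11 ends 822 kb beyond Tex19.1. Of the 38, 18 passed an adjusted p of 0.05 in the authors' deposited table, or 47.4%, against 51.7% of all genes. Of these 11 were higher and 7 lower, or 28.9% and 18.4% of the 38, against 25.2% and 26.5% of all genes. The median of the 38 was 0.03 on the log2 scale. None of the 38 reached a change of 0.5, as 7.38% of all genes did. Over the 808 genes of chromosome 11 other than Tex19.1, the median was 0.07 and 60.3% passed, 340 higher and 147 lower.

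Apart from the 9, 14 of 29 genes within 1 Mb passed, 10 higher (34.5%) and 4 lower (13.8%). Over all genes 25.2% were higher and 26.5% lower. Over chromosome 11 without Tex19.1 the shares were 42.1% and 18.2%. On the higher side, Slc16a3 at 0.32 was the largest in the authors' deposited table, and the only 1 of the 38 outside the central 95% of its genes of like expression. The centrosome gene Lrrc45 stood at 0.21 there. The mitochondrial ribosomal protein gene Mrpl12 at 0.15, the mRNA export gene Alyref at 0.13, Arhgdia at 0.12, the autophagy gene Wdr45b at 0.12, Pcyt2 of phosphatidylethanolamine synthesis at 0.12, the fatty acid synthase gene Fasn at 0.11 and Tbcd at 0.10 were also higher in the authors' deposited table. On the lower side stood the deacylase gene Sirt7 at -0.23, the cytoplasmic actin gene Actg1 at -0.16, the Wnt deacylase gene Notum at -0.12 and Nploc4, a cofactor of the p97 segregase, at -0.10 in the authors' deposited table. The 15 others ran between -0.09 and 0.09.

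**Figure D4:**
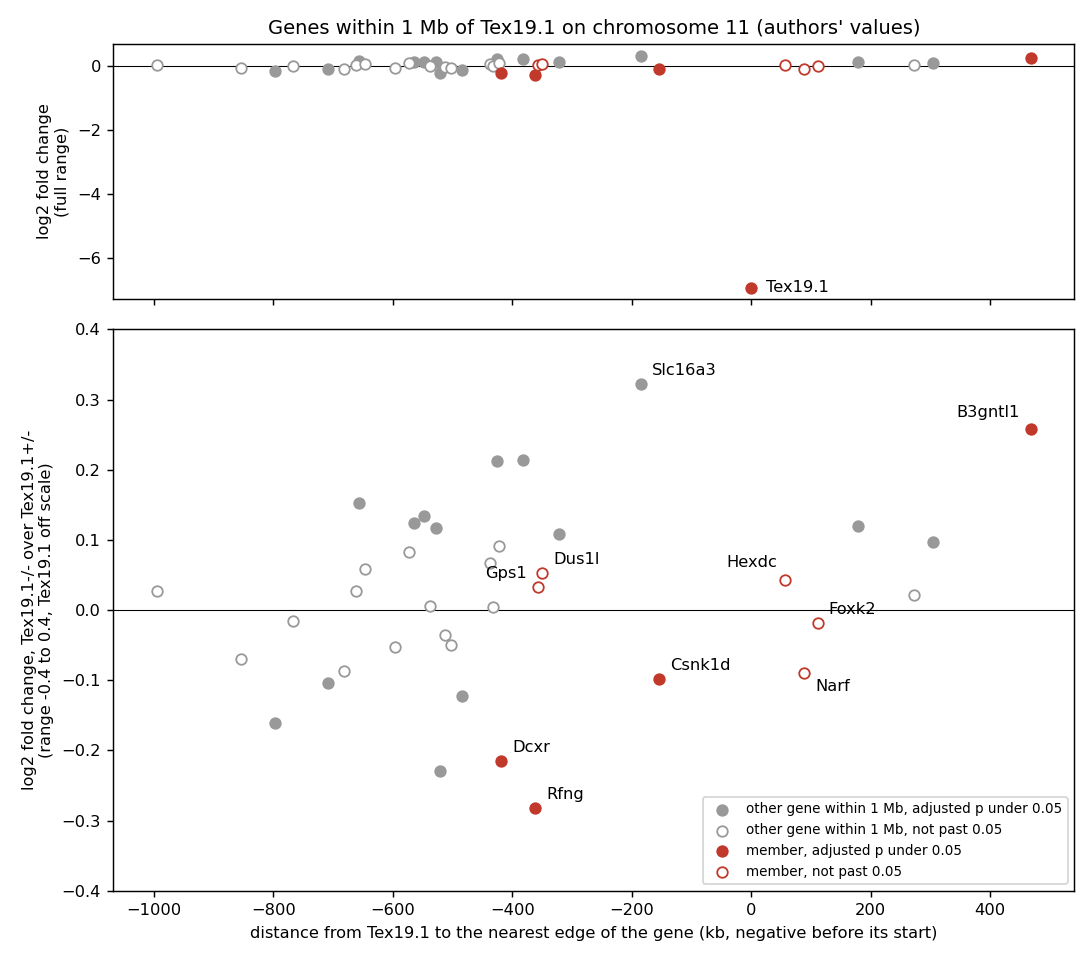
Log2 fold change of Tex19.1-/- over Tex19.1+/- cells (vertical axis) against distance from Tex19.1 in kilobases (horizontal axis, negative before its start) for the genes of the table within 1 Mb, with the 10 genes in red, the others in grey, and filled points for an adjusted p under 0.05. The upper panel has the full range with Tex19.1 at -6.92. The lower panel runs between -0.4 and 0.4, where genes that rose and genes that fell are interspersed before Tex19.1. After it 3 of 7 genes passed (Wdr45b, Tbcd and B3gntl1), all higher, or 42.9%. The share higher was 25.2% over all genes and 42.1% over chromosome 11 without Tex19.1.

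The genes with the largest changes among the 9 were not those nearest to Tex19.1. The nearest measured genes, Hexdc, Narf and Foxk2, lie 56.1, 88.9 and 112 kb after Tex19.1, and none of them passed. Csnk1d, the nearest before it, was at -0.10 in the authors' deposited table. Rfng, Dcxr and B3gntl1, with the largest changes of the 9, lie 362, 419 and 468 kb away. Among all 38 genes within 1 Mb, Slc16a3 changed most, at 0.32 in the authors' deposited table, and it lies 185 kb before Tex19.1. Of the 20 genes within 0.5 Mb 55% passed, and of all 38 within 1 Mb 47.4%. Of the 11 from 1 to 2 Mb 27.3% passed, against 51.7% of all genes. Changes of these 11 ran between -0.55 and 0.20 in the authors' deposited table, so the largest of them exceeded that of Slc16a3 in size. Whether the changes go with distance was not tested. Between Csnk1d and Hexdc the annotation has 6 other protein-coding genes beside Tex19.1 (Cd7, Sectm1a, Sectm1b, Tex19.2, Uts2r and Ogfod3), which were not analysed here, so the 56.1 kb after Tex19.1 and the 155 kb before it carry no measured gene.

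Genes listed for a link to Tex19.1 other than position, UBR ligase genes and germline genes, were read from the same table. Of the UBR ubiquitin ligase genes, Ubr2, whose product TEX19.1 binds, was at -0.30, Ubr4 at -0.24 and Ubr1 at -0.13 in the authors' deposited table, each past the threshold, against 26.5% of all genes lower. The UBR and germline lists were chosen with earlier results of these data known. Of 20 listed germline genes, a group in which DNA methylation is known to silence many members outside the germ line, 9 were measured: 5 fell, 0 rose and 4 did not pass, with a median of -0.18 against 0.00 over all genes. Over all genes 51.7% passed, 26.5% lower and 25.2% higher. Piwil2 at -1.23, Hormad1 at -1.20, Mael at -0.41, Rpl10l at -0.27 and Ddx4 at -0.18 were those that fell in the authors' deposited table.

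The labelled cell type was checked on 11 ES cell markers, which were all measured, at means between 163 CPM for Dppa4 and 1566 CPM for Dppa5a. Of these 11, 6 were higher and 2 lower in Tex19.1-/- cells and 3 did not pass, with a median of 0.10 in the authors' deposited table, against 25.2% of all genes higher and 26.5% lower. Of 7 fibroblast markers 1 was measured, Vim, at 209 CPM, and it was lower, at -0.33 in the authors' deposited table. Of 8 primitive endoderm markers 6 were measured, and all 6 were lower in Tex19.1-/- cells, between -2.34 for Pdgfra and -1.19 for Lama1 in the authors' deposited table, against 26.5% of all genes lower. In bulk samples fewer cells of a type and less RNA per cell cannot be told apart. The part of these ES cell, fibroblast and endoderm markers in the small changes of the neighbours was not tested.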

How the data were processed

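TruSeq Stranded mRNA libraries were sequenced as 150-base pairs, per the labels' protocols. Per the submitters' processing notes, trimming, alignment and counting used Trim Galore (0.4.1), TopHat2 (2.1.0) and HTSeq (0.11.2) on mm10, with edgeR for the comparison. The annotation, the filter and the test's form are not stated in those notes. Per gene, the authors deposited 4 values: a log2 fold change, a mean as log2 CPM, a p-value and an adjusted p-value. The lowest mean is 3.52 CPM, and the adjusted p-values follow Benjamini and Hochberg.

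The count model planned for values per library could not be run. Computed here (Python 3.11.15, pandas 2.3.3) were implied levels, implied intervals, and each gene's place among the about 300 genes nearest in mean log2 CPM, a step checked on simulated data. Positions come from GENCODE M21 (GRCm38): 9587 symbols matched, 137 matched through older symbols, and 404 genes had no position. Promoters are RefSeq's (GRCm38.p6), with 9 of the 10 genes matched. Beside the 10 genes, the text names the passing genes within 1 Mb, the 5 nearest to Tex19.1 in fold change, the 2 on each side of it in mean level, and list members; some that this rule takes are not reported here. The 10 genes and the lists were chosen with earlier results of these data known. Nothing in the labels says that the samples are separate cultures, so p-values may reflect technical spread.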

Additional observations from a re-analysis of the deposited data

How the results depend on the processing

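No paired analysis was possible because the authors' table has no values per library. For the same reason leaving out replicates, another count tool and a filter on counts were not run. Of the 10 genes, 2 passed with Bonferroni adjustment (Tex19.1 and Rfng, against 23.8% of all genes). When only genes with at least 16 CPM were kept, 3 of 7 passed, against 51.7% of all genes kept. Tex19.1, B3gntl1 and Hexdc lie under that level. At an adjusted p under 0.01, 4 passed, without Csnk1d, against 41.3% of all genes. Within 0.5 Mb of Tex19.1, 11 of 20 genes passed, a lower count since fewer genes lie there, but a share of 55%. Within 2 Mb 21 of 49 passed, or 42.9%, against 51.7% of all genes. With about 100 or about 1000 genes of like expression in place of about 300, Tex19.1 was again the 1 gene outside. Subtracting the median of genes of like expression or a trend on GC content and transcript length moved no fold change of the 10 by more than 0.07 and turned no sign. The depth of the libraries is unknown, and precision rests on the authors' p-values.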
